A study of Homo sapiens with 6 samples.

Results

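Aminoacyl-tRNA synthetases, the enzymes that join each amino acid to its tRNA, were examined in HK-2 cells with and without OX-LDL. HK-2 is an immortalized line derived from human proximal tubular epithelium, and OX-LDL is oxidized low-density lipoprotein. The members were the genes whose name in the expression table equalled an entry of a list of 39 symbols, all of which were found among the 58825 genes of the table. They comprised 20 cytosolic enzyme genes, 16 genes of mitochondrial enzymes (whose names end in 2) and 3 scaffold proteins of the multi-synthetase complex (AIMP1, AIMP2 and EEF1E1). Poly(A) RNA was sequenced in 3 Control libraries, labelled untreated, and in 3 libraries of cells exposed to OX-LDL at 25 μg/ml over 48 h. Per the study's methods the cells were kept in low serum before OX-LDL was added, and the labels give no time for Control. Both groups are cultures of the same cell line, with no genetic change named in the labels. Whether OX-LDL altered the mRNA of the enzymes of the cytosol, of their scaffold and of the mitochondrion was the comparison made here.

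Cytosolic synthetases charge the tRNAs that ribosomes of the cytosol use, and a separate set encoded in the nucleus charges the tRNAs of the mitochondrial genome. Several cytosolic enzymes are held together with the scaffold proteins in the multi-synthetase complex, while the others are free. Many cytosolic synthetase genes are textbook targets of ATF4, a transcription factor that is translated when amino acids are short or the endoplasmic reticulum is stressed, and that binds composite C/EBP-ATF elements.

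After OX-LDL, 13 of the 20 cytosolic enzyme genes were lower, 3 were higher (RARS, KARS and DARS) and 4 did not pass the test. Of the 16 mitochondrial genes, 1 was lower (NARS2), 2 were higher (IARS2 and RARS2) and 13 did not pass. EEF1E1 was the only scaffold gene called, and it was lower. A call here is an adjusted p under 0.05 in edgeR's quasi-likelihood test with Benjamini-Hochberg adjustment over 19510 genes, those whose mean over the 6 libraries reached 0.1 FPKM (fragments scaled for both transcript length and library size). All 39 members passed that minimum. Of all genes tested, 7.42% were called lower and 7.91% higher. The median log2 fold change, OX-LDL over Control, was -0.64 for the cytosolic enzymes, -0.02 for the mitochondrial ones and -0.34 for the scaffold proteins, beside -0.00 over all genes tested. In bulk RNA, fewer cells of a kind and less RNA per cell cannot be told apart.

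**Figure D1:**
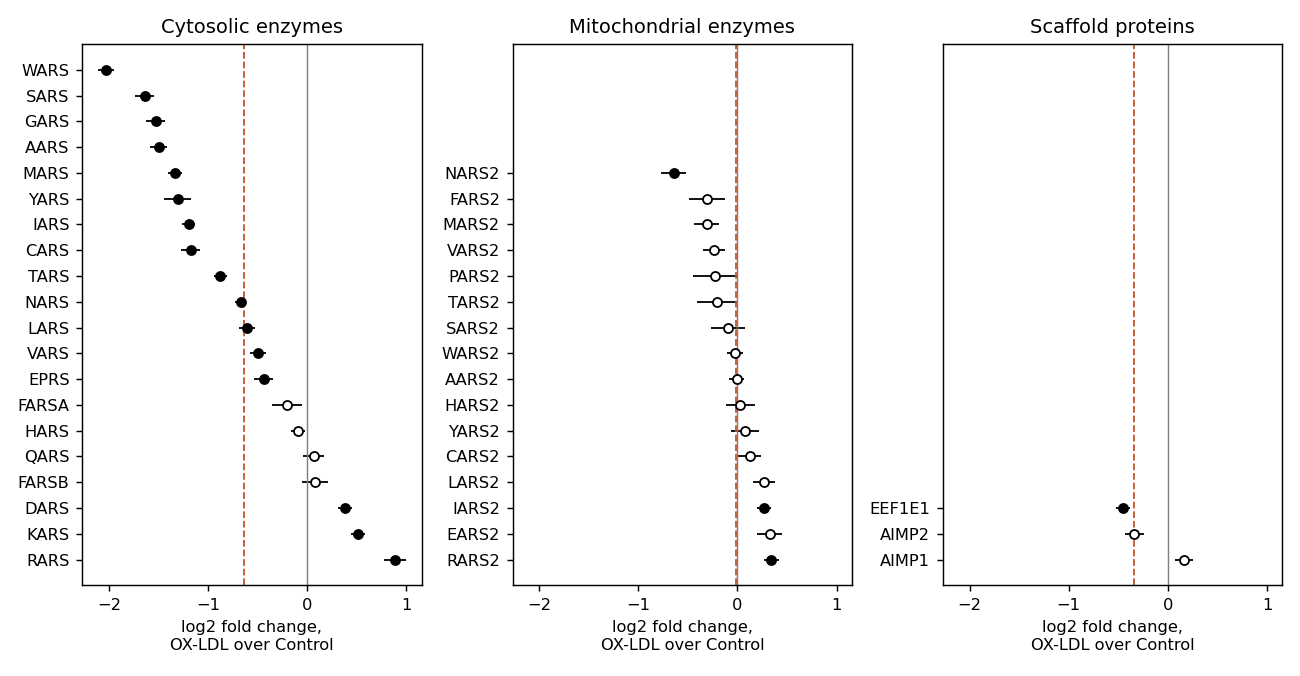
Log2 fold change of each member, OX-LDL over Control, from edgeR's fit over 3 libraries per group, in panels for cytosolic enzymes, mitochondrial enzymes and scaffold proteins. Bars are ± 1 standard error, filled points were called at an adjusted p under 0.05, and the dashed line is the median of the panel. The cytosolic values reach from -2.03 (WARS) to 0.89 (RARS), while the mitochondrial values lie between -0.64 (NARS2) and 0.34 (RARS2).

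The libraries held 62561347 to 76797607 estimated counts, and the lowest count of any cytosolic member in any library was 2456. Mitochondrial members were counted less deeply, with a lowest library count of 363. The labelled cell type was checked with markers. Of 7 kidney epithelium genes, KRT8, KRT18, EPCAM, PAX8 and CDH6 were at 8.30 FPKM or more in each library. The others were low, CDH1 (E-cadherin) at 0.144 FPKM or less and PAX2 at 0.661 FPKM or less. Among the epithelial genes, CDH6 (log2 fold change 1.36) and KRT8 (0.83) were higher after OX-LDL and PAX8 (-1.23) was lower. Their part in the synthetase values was not tested. In contrast, most defining genes of the differentiated proximal tubule were at or near 0. LRP2 and SLC22A6 had 0 counts in each library, and CUBN, AQP1, ANPEP, HNF4A and SLC34A1 were at 0.142 FPKM or less. SLC5A2 reached 0.516 FPKM. GGT1 was carried by 2 entries of the table, between which reads may have been divided. ENSG00000100031 was between 3.13 and 18.2 FPKM and did not pass, whereas ENSG00000286070 was between 0.0001 and 22.6 FPKM and was lower after OX-LDL (13.6 ± 11.97 FPKM in Control, SD, n = 3, edgeR adjusted p = 0.0371). The leukocyte gene PTPRC, the endothelial gene PECAM1 and the fibroblast gene DCN did not exceed 0.0918 FPKM.

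Promoters were read for the C/EBP-ATF composite element, written as TGATGNAA or, on the other strand, TTNCATCA, because ATF4 binds such elements. The window ran from 250 bases before to 50 bases after an annotated start in RefSeq on GRCh38.p14. Of the 39 members, 33 had a promoter in the reference table, and AARS2, DARS, LARS, VARS, VARS2 and YARS were not matched. The element was present in 8 of the 33. The 30 bases around each match are shown because 7 of the 8 belong to cytosolic enzymes that were lower after OX-LDL. The sequences run 5′ to 3′ on the strand of the gene, and capitals mark the element.
AARS: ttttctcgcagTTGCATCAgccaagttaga
CARS: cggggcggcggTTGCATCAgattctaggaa
GARS: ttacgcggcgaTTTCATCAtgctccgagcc
IARS: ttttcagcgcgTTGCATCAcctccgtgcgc
MARS: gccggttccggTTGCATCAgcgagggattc
NARS: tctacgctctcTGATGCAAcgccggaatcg
TARS: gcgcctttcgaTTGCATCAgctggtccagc
YARS2: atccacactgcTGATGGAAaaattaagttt

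These stretches lie at chr16:70289675-70289704 (AARS, minus strand), chr11:3057407-3057436 (CARS, minus), chr7:30594834-30594863 (GARS, plus), chr9:92293692-92293721 (IARS, minus), chr12:57488053-57488082 (MARS, plus), chr18:57621804-57621833 (NARS, minus), chr5:33440956-33440985 (TARS, plus) and chr12:32756076-32756105 (YARS2, minus). In 6 of the 8 the element reads TTGCATCA or its reverse complement TGATGCAA, whereas GARS has TTTCATCA and YARS2 has TGATGGAA. Counted from the start, its first base was at -187 in AARS and at -197 in YARS2. In the other 6 it was between -33 (GARS) and 14 (NARS), so that in CARS and MARS it spans the start itself.

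Several genes had more than 1 annotated start, and a gene was counted when any of its promoters held the element. By gene, it was found for 7 of 16 cytosolic enzymes (43.8%), 1 of 14 mitochondrial enzymes (7.14%) and 0 of 3 scaffold proteins. Of the 11629 tested genes with a promoter, 318 held it (2.73%), and counted by promoter rather than by gene, it was in 1270 of all 35116 promoters of the table (3.62%). Among tested genes it was present in 66 of 1103 called lower (5.98%) and in 21 of 1176 called higher (1.79%). Of the 10 cytosolic enzymes that were lower and had a promoter, 7 held the element, and WARS, SARS and EPRS did not. None of the 6 cytosolic enzymes with a promoter that were not lower (FARSA, FARSB, HARS, KARS, QARS and RARS) held it. A match describes the letters of the window, and binding was not measured.

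**Figure D2:**
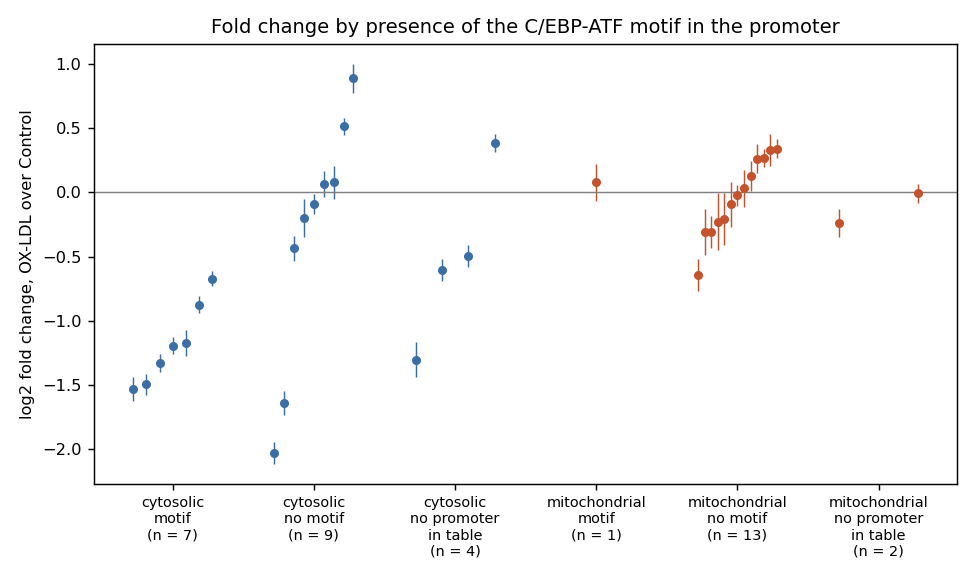
Log2 fold change (± 1 standard error, OX-LDL over Control, 3 libraries per group) of synthetase genes grouped by compartment and by whether the promoter held the C/EBP-ATF element. The 7 cytosolic genes with the element lie between -1.53 (GARS) and -0.67 (NARS), while those without it range from -2.03 (WARS) to 0.89 (RARS). YARS2, the mitochondrial gene with the element, is at 0.08.

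Most of the free cytosolic enzymes, those outside the complex, were lower. Of these 12, 9 were lower, 0 higher and 3 did not pass, with a median log2 fold change of -1.02. The shares over all genes tested were 7.42% lower and 7.91% higher. WARS, the tryptophanyl-tRNA synthetase (chr14:100333790-100376343), was at 50.9, 57.2 and 60.4 FPKM in the Control libraries and at 13.8, 12.7 and 13.8 after OX-LDL. The groups were far apart, the mean falling from 56.1 ± 4.82 to 13.4 ± 0.654 FPKM (SD, n = 3). Its log2 fold change of -2.03 (standard error 0.08, edgeR adjusted p = 0.000209) was the lowest of the members.

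SARS, which charges serine and supplies the first step of selenocysteine synthesis (chr1:109213918-109238182), had 80.6, 93.7 and 92.1 FPKM in Control against 26.6, 26.2 and 30.8 after OX-LDL. The log2 fold change was -1.64 (standard error 0.09, edgeR adjusted p = 0.000493). GARS, the glycyl-tRNA synthetase (chr7:30594838-30634033), was nearly constant in Control at 111, 109 and 109 FPKM. After OX-LDL it was at 35.5, 34.1 and 41.9 FPKM, each below 0.5 of any Control value, and its log2 fold change was -1.53 (0.09, edgeR adjusted p = 0.000601). GARS is 1 of 2 genes here, with KARS, that also give the mitochondrial form of the enzyme.

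AARS, the alanyl-tRNA synthetase (chr16:70252295-70289543), had 66.2, 69.5 and 75.7 FPKM in Control and 24.2, 22.9 and 26.1 after OX-LDL, without overlap. Its log2 fold change of -1.50 had a standard error of 0.08 (edgeR adjusted p = 0.000421). YARS, the tyrosyl-tRNA synthetase, fell from 25.7, 24.6 and 31.4 FPKM to 11.7, 9.15 and 11.5. The Control libraries of YARS were more spread than those of most members, and its log2 fold change of -1.30 had the larger standard error of 0.14 (edgeR adjusted p = 0.00286). CARS, the cysteinyl-tRNA synthetase, was among the lowest cytosolic members, at 8.00, 7.56 and 8.07 FPKM in Control and 3.45, 3.02 and 3.76 after OX-LDL. On the log2 scale it fell by 1.17 (0.10, edgeR adjusted p = 0.00170).

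TARS and NARS, which charge threonine and asparagine, were lower by less. TARS was at 68.0, 63.6 and 68.3 FPKM in Control and 35.3, 34.5 and 37.0 after OX-LDL, a log2 fold change of -0.87 (0.07, edgeR adjusted p = 0.00147). NARS was at 95.5, 96.7 and 101 FPKM in Control and at 58.8, 59.6 and 61.5 after OX-LDL (-0.67, standard error 0.06, edgeR adjusted p = 0.00191). VARS, the valyl-tRNA synthetase, went from a mean of 18.6 ± 1.42 to 12.9 ± 0.888 FPKM (SD, n = 3), with a log2 fold change of -0.49 (0.09, edgeR adjusted p = 0.0133). The adjusted p of VARS was 0.0551 without Control replicate 2, 0.0564 without OX-LDL replicate 1 and 0.0611 without OX-LDL replicate 3.

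The free enzymes that did not pass were HARS, for histidine, and FARSA and FARSB, the subunits of the phenylalanine enzyme. Their groups overlapped in FPKM. FARSA was at 14.9 ± 2.09 FPKM in Control and 12.7 ± 2.27 after OX-LDL (log2 fold change -0.20, standard error 0.15), and FARSB at 10.6 ± 1.53 and 10.99 ± 1.25 (0.08, standard error 0.13). HARS was at 7.33 ± 0.458 and 6.72 ± 0.246 FPKM (SD, n = 3), a log2 fold change of -0.09.

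**Figure D3:**
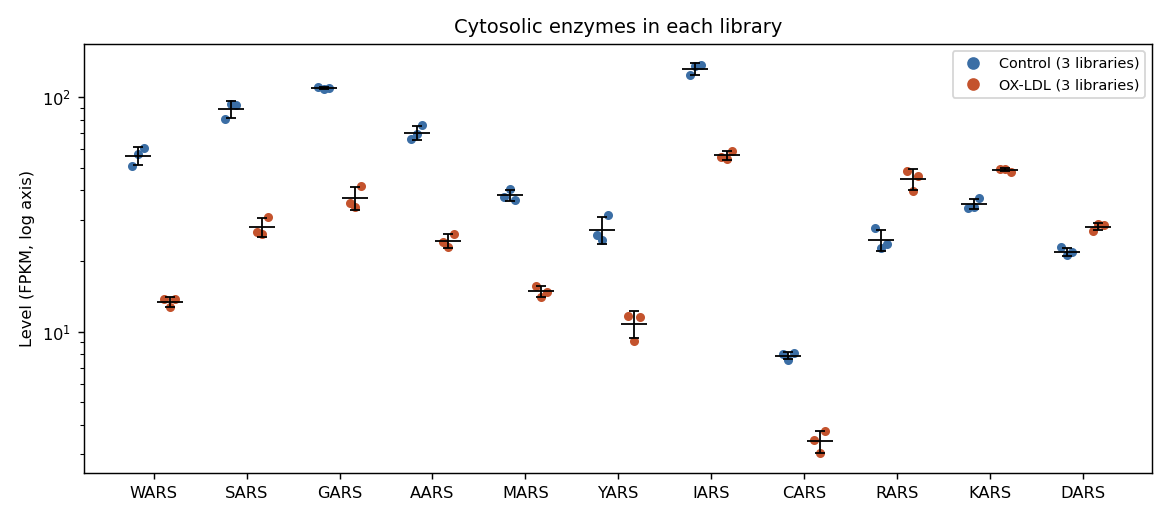
FPKM on a log axis of the 8 cytosolic enzymes with less than 0.5 of the Control level after OX-LDL and of the 3 that were higher, with 1 point per library and bars for the mean ± SD (n = 3). For the 8 genes on the left each OX-LDL point lies below each Control point, and for RARS, KARS and DARS each lies above.

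The 8 enzymes of the complex were divided in direction. IARS, MARS, LARS and EPRS were lower, RARS, KARS and DARS were higher, and QARS did not pass, with a median log2 fold change of -0.19. Over all genes tested, 7.42% were called lower and 7.91% higher. IARS, the isoleucyl-tRNA synthetase (chr9:92210207-92293756), had the highest Control level of the cytosolic enzymes, with 124, 136 and 136 FPKM. After OX-LDL it was at 55.6, 54.5 and 59.0 FPKM, without overlap, and its log2 fold change was -1.19 (0.07, edgeR adjusted p = 0.000421).

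MARS, which charges methionine on both initiator and elongator tRNA (chr12:57475445-57517569), was at 37.5, 40.5 and 36.5 FPKM in Control and at 15.7, 14.04 and 14.8 after OX-LDL. It fell by 1.33 on the log2 scale (0.07, edgeR adjusted p = 0.000381). In the table MARS overlaps DDIT3, a stress-induced transcription factor on the other strand whose log2 fold change was -2.64. Whether the counting used strand is not given in the sources used here, so reads of MARS and DDIT3 in the shared stretch may not have been kept apart. The same limit holds for other members that overlap a gene of the other strand. Examples are YARS (S100PBP), HARS (HARS2), AIMP1 (TBCK), AIMP2 (EIF2AK1), EARS2 (UBFD1) and YARS2 (DNM1L). LARS, the leucyl-tRNA synthetase, was at 24.5, 25.1 and 28.4 FPKM in Control and 16.4, 17.7 and 16.0 after OX-LDL (log2 fold change -0.61, standard error 0.08, edgeR adjusted p = 0.00713).

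EPRS, a fusion protein that charges both glutamate and proline, was reduced from 125 ± 6.92 to 90.5 ± 9.28 FPKM (SD, n = 3). Its log2 fold change of -0.44 (0.09, edgeR adjusted p = 0.0263) did not pass when any of 3 libraries was dropped, the adjusted p being 0.0758 without the first and 0.0728 without the third Control library, and 0.0741 when OX-LDL replicate 1 was left out. With the fall of IARS, EPRS moved from the second highest cytosolic level in Control to the highest after OX-LDL.

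RARS, the arginyl-tRNA synthetase (chr5:168486451-168519298), was the cytosolic enzyme with the largest rise. It was at 27.5, 22.7 and 23.7 FPKM in Control and at 48.3, 39.7 and 46.1 after OX-LDL, each OX-LDL library above each Control library. The log2 fold change was 0.89 (0.11, edgeR adjusted p = 0.00554), and RARS moved from rank 13 to rank 5 of the 20 cytosolic levels. KARS, the lysyl-tRNA synthetase (chr16:75627474-75647679), was at 33.8, 34.1 and 37.1 FPKM in Control and at 49.3, 49.3 and 48.0 after OX-LDL. It rose by 0.51 (0.07, edgeR adjusted p = 0.00579) and moved from rank 10 to rank 4.

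DARS, the aspartyl-tRNA synthetase, was at 22.9, 21.2 and 21.8 FPKM in Control and 26.9, 28.6 and 28.5 after OX-LDL. Its groups did not overlap and its log2 fold change was 0.38 (0.07, edgeR adjusted p = 0.0173), which did not pass without Control replicate 2 (0.0646) or OX-LDL replicate 3 (0.0666). QARS, which charges glutamine, was at 14.8 ± 0.594 and 15.2 ± 1.84 FPKM (SD, n = 3), with a log2 fold change of 0.07 (0.10).

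The scaffold proteins hold these enzymes together. EEF1E1, also called AIMP3, was at 25.9, 24.8 and 26.6 FPKM in Control and at 17.8, 19.0 and 18.4 after OX-LDL, without overlap, a log2 fold change of -0.45 (0.07, edgeR adjusted p = 0.0115). In the table it overlaps EEF1E1-BLOC1S5, a read-through gene of the same strand, so reads may have been divided between them. AIMP2 was at 23.2, 23.1 and 21.7 FPKM in Control and 18.6, 15.5 and 18.5 after OX-LDL. Although its groups did not overlap, its log2 fold change of -0.34 (0.10) did not pass (edgeR adjusted p = 0.0598). AIMP2 had an adjusted p of 0.0287 with DESeq2 and 0.0394 with limma. AIMP1, which is also cleaved to a secreted cytokine, was at 18.2, 17.7 and 21.1 FPKM in Control and 21.7, 20.8 and 19.98 after OX-LDL, with overlap (0.16, standard error 0.09). Over the 11 proteins of the complex, enzymes and scaffold, 5 genes were lower, 3 higher and 3 not called. Among all genes tested, 7.42% were called lower and 7.91% higher.

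Synthetases fall into 2 structural classes by the fold of the catalytic domain. EPRS was counted in class I only, by its glutamate enzyme, although enzymes for proline were placed in class II. Of the 10 cytosolic genes of class I, 8 were lower and 1 (RARS) higher, with a median log2 fold change of -0.89. Of the 10 of class II, 5 were lower and 2 (KARS and DARS) higher, with a median of -0.44. In the mitochondrial set 0 of 9 class I genes were lower and 2 were higher, and 1 of 7 class II genes was lower. Over all genes tested, 7.42% were called lower and 7.91% higher. A difference between the classes was not tested.

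Groups that do not overlap in FPKM were also counted. This held for 13 cytosolic genes in the lower direction and 3 in the higher direction, the same genes as those called. It held for 3 mitochondrial genes in each direction. Of all genes tested, 20.5% were lower without overlap and 16.8% higher. The 8 cytosolic genes that were called with a fold change below 0.5 (WARS, SARS, GARS, AARS, MARS, YARS, IARS and CARS) had Control means 2.31 to 4.18 times those after OX-LDL. Such genes made up 2.03% of all genes tested, and none was mitochondrial.

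Among mitochondrial enzymes, NARS2, for asparagine, was the only gene called lower. It was at 9.02, 10.03 and 9.25 FPKM in Control and 5.59, 6.86 and 5.24 after OX-LDL, with a log2 fold change of -0.64 (0.12, edgeR adjusted p = 0.0182). NARS2 did not pass without Control replicate 2 (0.0678), without OX-LDL replicate 1 (0.0686) and without OX-LDL replicate 3 (0.0654). Its cytosolic counterpart NARS had a log2 fold change of -0.67.

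IARS2 and RARS2 had the highest levels of the mitochondrial set. IARS2, for isoleucine, was at 64.3, 60.9 and 61.7 FPKM in Control and at 69.7, 73.1 and 77.1 after OX-LDL. Its log2 fold change of 0.27 (0.07, edgeR adjusted p = 0.0480) was close to the threshold, and leaving out any 1 library brought the adjusted p to between 0.0708 and 0.145. RARS2, for arginine, was at 22.7, 21.2 and 23.7 FPKM in Control and at 29.2, 27.3 and 27.3 after OX-LDL. It rose by 0.34 (0.08, edgeR adjusted p = 0.0285), a value that passed without Control replicate 3 or OX-LDL replicate 2 and was between 0.0674 and 0.0914 without any other library. RARS and RARS2 were both higher, whereas IARS was lower and IARS2 higher.

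The other 13 mitochondrial genes had log2 fold changes from -0.31 to 0.33 and adjusted p-values from 0.132 to 0.962 in edgeR's test. Of the partners of the most reduced cytosolic enzymes, WARS2 and AARS2 were near their Control level, whereas IARS2 was called higher. WARS2 was at 7.70, 7.45 and 7.00 FPKM in Control and 7.08, 7.03 and 7.22 after OX-LDL (-0.02, standard error 0.08). AARS2 was at 6.34, 6.58 and 6.25 FPKM and then at 6.27, 6.43 and 5.96 (-0.01, standard error 0.07). Both genes overlapped between groups.

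SARS2, at 3.01, 2.34 and 2.96 FPKM in Control and 2.19, 2.93 and 2.49 after OX-LDL, also overlapped (-0.09, standard error 0.17). YARS2 had 6.60, 8.06 and 7.77 FPKM in Control and 6.86, 9.03 and 7.25 after OX-LDL (0.08, standard error 0.14). CARS2 had 2.48, 2.36 and 2.12 FPKM and then 2.39, 2.78 and 2.26 (0.13, standard error 0.12). None of these 3 moved beyond the spread of its libraries.

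MARS2, VARS2 and EARS2 did not pass although their groups did not overlap. MARS2 was at 4.59, 4.88 and 5.68 FPKM in Control and 4.39, 3.74 and 3.84 after OX-LDL (-0.31, edgeR adjusted p = 0.155). VARS2 was at 3.92, 3.75 and 3.46 FPKM and then at 3.27, 2.72 and 3.26 (-0.24, edgeR adjusted p = 0.192), and shares part of its locus with GTF2H4 on the same strand. EARS2, for glutamate, was at 2.37, 2.45 and 2.55 FPKM and then at 2.84, 2.73 and 3.47 (0.33, edgeR adjusted p = 0.132). Such separation was common, found for 20.5% of all genes tested in the lower direction and 16.8% in the higher. It is therefore not read as a change of these genes.

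LARS2 was at 2.70, 2.38 and 2.23 FPKM in Control and 3.15, 2.81 and 2.64 after OX-LDL, with overlap (0.26, standard error 0.11). TARS2 was at 5.65, 9.63 and 6.98 FPKM in Control and 7.13, 6.37 and 5.32 after OX-LDL, the widest relative spread in Control among these partners (-0.21, standard error 0.20). HARS2, FARS2 and PARS2 overlapped too, with log2 fold changes of 0.03, -0.31 and -0.23. HARS and HARS2 are read head to head from starts 85 bases apart on chromosome 5 and overlap in the table, and neither passed the test.

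In summed FPKM, the cytosolic enzymes went from 968, 987 and 1026 in the Control libraries to 575, 545 and 593 after OX-LDL. The means were 994 ± 29.5 and 571 ± 24.5 (SD, n = 3). The mitochondrial sum was 153, 156 and 153 FPKM in Control and 162, 165 and 164 after OX-LDL, a small rise in which IARS2 had the main share. Without IARS2 it was 91.6 ± 3.35 in Control and 90.4 ± 3.06 after OX-LDL. The cytosolic sum was therefore 6.45 ± 0.209 times the mitochondrial sum in Control and 3.49 ± 0.167 times after OX-LDL, with no overlap between the groups. The scaffold sum went from 67.5 ± 1.9 to 56.8 ± 1.40 FPKM.

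To compare the compartments directly, the log2 ratio of the cytosolic to the mitochondrial enzyme was taken in each library for the 16 amino acids with an enzyme of each kind. The ratio was lower without overlap for 9 amino acids (alanine, cysteine, glutamate, isoleucine, leucine, methionine, serine, tryptophan and tyrosine), higher without overlap for arginine and overlapping for 6. With 3 libraries per group an exact two-sided permutation test cannot go below p = 0.1, the value of all 10 that did not overlap. Adjusted over the 16 ratios this is 0.16, so none can pass in this design.

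The tryptophan ratio was 2.71, 2.92 and 3.09 in Control and 0.95, 0.84 and 0.93 after OX-LDL, a difference of -2.001. The serine ratio went from 4.96 ± 0.29 to 3.41 ± 0.26 and the alanine ratio from 3.44 ± 0.12 to 1.95 ± 0.15 (SD, n = 3). For isoleucine the order of the enzymes turned, the ratio being 0.94, 1.15 and 1.14 in Control and -0.33, -0.42 and -0.39 after OX-LDL, so that IARS2 exceeded IARS in each OX-LDL library. The arginine ratio was 0.28, 0.10 and -0.00 in Control and 0.72, 0.54 and 0.75 after OX-LDL, a difference of 0.55. The asparagine ratio was 3.36 ± 0.09 and 3.33 ± 0.22, since NARS and NARS2 were both lower. Glutamate and proline share EPRS in the cytosol, and their ratios differed by -0.75, without overlap, and by -0.21, with overlap.

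**Figure D4:**
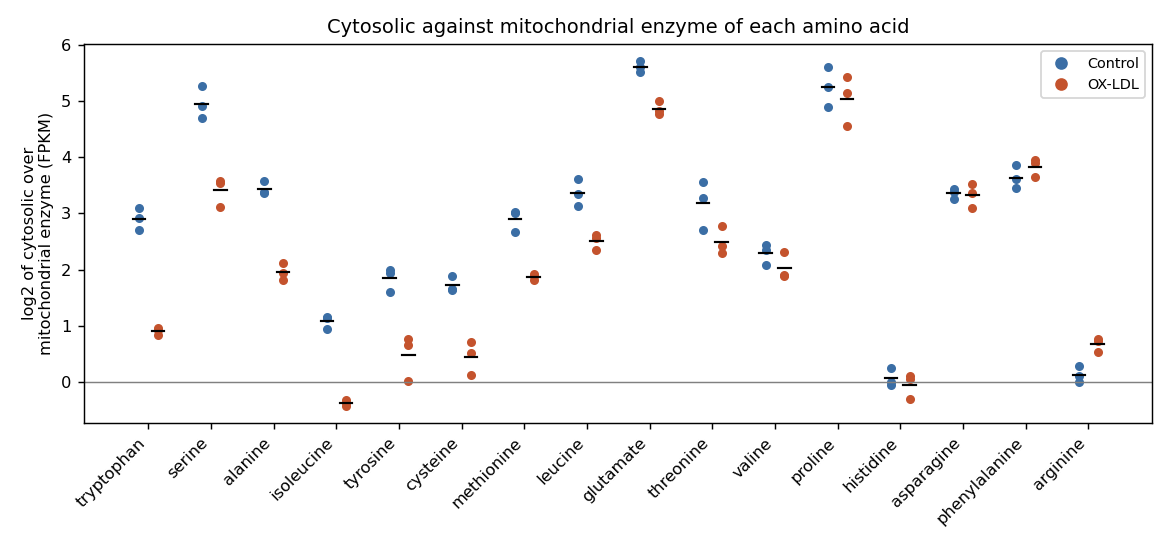
Log2 ratio of the FPKM of the cytosolic to that of the mitochondrial enzyme of each of 16 amino acids, with 1 point per library and a bar for the mean of 3 libraries. Control and OX-LDL points are apart for the 9 amino acids whose ratio was lower and for arginine, whose ratio was higher, and the isoleucine ratio crosses 0.

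GARS and KARS, the genes that serve both compartments, changed in opposite directions (-1.53 and 0.51). TARSL2, a threonyl-tRNA synthetase paralog outside the list, was higher. It had 1.59 ± 0.265 FPKM in Control against 3.15 ± 0.318 after OX-LDL and rose by 1.02 on the log2 scale (0.17, edgeR adjusted p = 0.0116).

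Of 10 genes for tRNA editing, processing, repair and export, 2 were lower and 0 higher, with a median log2 fold change of 0.03. The shares over all genes tested were 7.42% lower and 7.91% higher. XPOT, which exports tRNA from the nucleus, had 86.2 ± 2.86 FPKM in Control and 36.7 ± 1.35 after OX-LDL (SD, n = 3), with a log2 fold change of -1.20 (0.06, edgeR adjusted p = 0.000381). DTD1, a deacylase that removes D-amino acids from tRNA, had a log2 fold change of -0.51 (0.10, edgeR adjusted p = 0.0223). TRNT1, which adds the CCA end, was at -0.45 and did not pass (edgeR adjusted p = 0.0517).

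ATF4 targets that are not synthetases were listed beside the members. The list was chosen with earlier results of these data known. Of these 20 genes 19 were lower and 0 higher, with a median log2 fold change of -1.64, and VLDLR did not pass. The shares over all genes tested were 7.42% lower and 7.91% higher. SHMT2, which makes glycine from serine in the mitochondrion, had a log2 fold change of -2.03 (0.08), and PHGDH and PSAT1, the first steps of serine synthesis, had -1.87 (0.08) and -1.61 (0.09). All 3 had adjusted p-values of 0.000365 or less in edgeR's test. The element TGATGNAA was found for 6 of the 17 genes of this list that had a promoter (35.3%), beside 2.73% of tested genes with a promoter. Whether ATF4 had a part in the levels of the synthetases was not tested.

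**Figure D5:**
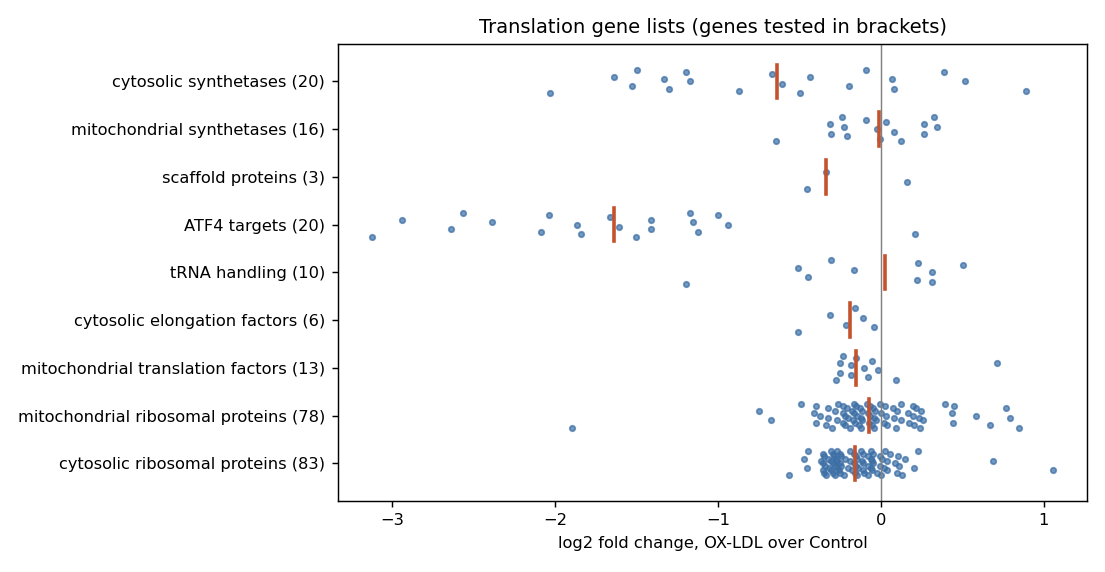
Log2 fold change of each tested gene, OX-LDL over Control, in the synthetase sets and in related gene lists, with the number of genes in brackets and a bar for the median of each list. The ATF4 targets (median -1.64) and the cytosolic synthetases (-0.64) lie to the left. Medians nearer to 0 are those of the mitochondrial synthetases (-0.02) and the ribosomal proteins of the mitochondrion (-0.07) and the cytosol (-0.16).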

How the data were processed

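RNA-seq of 3 Control and 3 OX-LDL libraries of HK-2 cells was used, grouped by the treatment label. The submitters' processing notes name cutadapt 1.9, HISAT2 2.0.4, StringTie 1.3.4d, edgeR, DESeq2 and the build GRCh38 without roles. The libraries were made with dUTP, and whether the counting used strand is not given in the sources used here. The authors deposited estimated counts per gene, not scaled for library size, and FPKM values, scaled by the authors for transcript length and library size, in 1 table. Total counts were 62561347 to 76797607 per library. The chi-square between libraries of a group, divided by the number of genes, was 52.4 to 90.4, where a library deposited again would give about 1 or less.

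The counts were fitted with edgeR 4.0.16 (R 4.3.3; TMM, glmQLFit, glmQLFTest, group as the only term) to each gene whose mean FPKM reached 0.1, and Benjamini-Hochberg adjustment ran over all 19510 of them. The scripts were tested on simulated data. Standard errors are those of the log2 fold change. Ratios used log2(FPKM + 0.1) and an exact two-sided permutation test. Alternatives were DESeq2 1.42.0, its size factors in edgeR, limma 3.58.1 on log2(FPKM + 0.1) and log2(FPKM + 1), no minimum, a minimum of 1 FPKM, a replicate block and leaving out each library. Values in each library are given for members called with a fold change above 1.5, their partner enzymes, the scaffold proteins and members moving against their set, and at most 3 genes, those with the smallest p, are named of a related list. Beside the members, TARSL2 was given, and the lists were tRNA handling, ATF4 targets, elongation factors, mitochondrial translation factors and ribosomal proteins. Some listed genes are not reported here. Members and lists were chosen with earlier results of these data known. The study's methods describe its cell experiments as independent repeats, but the labels do not say which culture or day each library came from, so p-values measure the spread between these libraries, which may be partly technical.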

Additional observations from a re-analysis of the deposited data

How the results depend on the processing

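Of the 20 members called, 14 kept their call under all 13 alternatives, and none of the 39 changed direction while called. The 6 others were DARS, EPRS, VARS, NARS2, IARS2 and RARS2. Over all genes, 2991 were called, 1636 with a replicate block and 1161 to 2943 with 1 library left out. The number of mitochondrial enzymes called higher went from 2 to 1 with limma at both pseudocounts and with no minimum, to 0 with the replicate block and to between 0 and 1 with 1 library left out, and the number called lower was 0 to 1 with 1 library left out. For the scaffold proteins 2 were called lower, in place of 1, with DESeq2, with limma at both pseudocounts and with a minimum of 1 FPKM, AIMP2 being the gene gained. The cytosolic median was between -0.66 and -0.59 with 1 library left out, the latter without Control replicate 3. The deviations of same-numbered libraries correlated at -0.04 to 0.04, so no shared deviation by replicate number was seen. Such values cannot tell whether same-numbered libraries came from the same culture or day. With the replicate block the calls of 36 of the 39 members were unchanged, and DARS (0.0640), IARS2 (0.120) and RARS2 (0.0694) did not pass. All 128 ratios recomputed under other settings moved by less than the spread between libraries. DESeq2 called 4430 genes and edgeR with no minimum 2321. The causes of these differences were not tested. With 3 libraries per group, outlying libraries were not tested for.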

Other observations

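Ribosomal proteins, elongation factors and mitochondrial translation factors were counted in the same fit. Of 83 cytosolic ribosomal protein genes tested, 6 were lower and 1 was higher, with a median log2 fold change of -0.16. For 78 mitochondrial ribosomal protein genes 6 were lower and 5 higher, with a median of -0.07. Over all genes tested, 7.42% were called lower and 7.91% higher. Fold changes were below 0 for 67 cytosolic ribosomal genes and above for 16. Groups did not overlap in FPKM for 29 of that list in the lower and 2 in the higher direction. For the mitochondrial list these were 21 and 10, beside 20.5% and 16.8% of all genes tested. Among 6 cytosolic elongation factors EEF1A1, which brings charged tRNA to the ribosome, was called. It went from 1688 ± 42.4 to 1158 ± 115 FPKM (SD, n = 3), a log2 fold change of -0.51 (standard error 0.09, edgeR adjusted p = 0.0119), and the list's median was -0.19. Among 13 mitochondrial translation factors 0 were lower and 1 was higher, MTIF3, an initiation factor, with a log2 fold change of 0.71 (0.12, edgeR adjusted p = 0.0125) and a median over the list of -0.15.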
